A study of Mus musculus with 10 samples.

Results

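Hair placode signalling genes are the ligands, receptors, inhibitors and transcription factors through which the embryonic epidermis and the dermis below it lay out hair follicles. The 10 genes described here were chosen for these known roles, by symbol, with earlier results of these data known: *Eda*, *Edar*, *Edaradd*, *Lhx2*, *Lef1*, *Sostdc1*, *Wnt10b*, *Shh*, *Dkk4* and *Fgf20*. All 10 are among the 53465 genes of the count table, and 9 of them were among the 16426 genes tested. *Shh* had too few counts and is described by its values. Bulk RNA-seq was made from whole pinna prominences, the buds of the outer ear, of 5 wild-type (WT) and 5 *mEC1*dup/dup embryos at E14.5, all on the C57BL/6J background. *mEC1*dup/dup embryos carry an additional copy of mEC1, an enhancer of the homeobox gene *Hmx1*, on each allele, placed there by CRISPR/Cas9 and bred to homozygosity. No Cre or transgenic promoter limits the change to one cell type, and epidermis, dermis, muscle and cartilage were measured together. The comparison asks how the placode genes stood in pinnae in which *Hmx1* expression was raised.

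A hair placode is a local thickening of the epidermis that forms in response to WNT signals, which act in the cell through beta-catenin and TCF/LEF factors. The ligand EDA then binds its receptor EDAR, whose adaptor EDARADD passes the signal to NF-kB, and cells in and around the placode in turn secrete SHH, FGF20 and the WNT inhibitors DKK4 and SOSTDC1. FGF20 and SHH act on the dermis, where a condensate of fibroblasts gathers below each placode. In the mouse, primary placodes of the body skin form at about the stage studied here.

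Total counts per library lay between 17461544 and 18462073. *Hmx1*, which checks the genotype labels, had 376 to 526 counts in the WT libraries and 976 to 1356 in the *mEC1*dup/dup libraries, so that the groups did not overlap. The libraries also differed in *Xist*, the RNA made from the inactive X chromosome of female cells. The 5 WT libraries held 2 to 5 *Xist* counts, and *mEC1*dup/dup replicates 1 to 5 held 12812, 19040, 18165, 2096 and 0. Genotype and *Xist* level are therefore largely confounded in these embryos, and beyond the fits given below the part of *Xist* level or sex in any difference cannot be told apart from genotype. Replicate 4 of *mEC1*dup/dup had an intermediate *Xist* level, 113 CPM, against 732.1 to 1049 CPM in replicates 1 to 3. The source of this level was not tested. A pair of libraries stood apart in their cell type markers. WT replicate 4 had the highest summed level of Schwann cell and neuron markers (504.1 CPM, against 193.2 to 331.9 in the other 9 libraries), and *mEC1*dup/dup replicate 1 had the lowest summed level of chondrocyte markers (2130 CPM, against 4665 to 8200). CPM are counts scaled to library sizes that were normalized by edgeR's TMM method.

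None of the 9 tested placode genes was called changed by edgeR's quasi-likelihood test, which required a mean log2 CPM of 1 or more and a p of 0.05 or less after Benjamini-Hochberg adjustment over all genes tested. Over all tested genes 434 were called, 2.64%, made up of 297 decreases and 137 increases in *mEC1*dup/dup. *Fgf20* was tested, but its average log2 CPM of -0.095 lay below the minimum, so it could not be called. At an unadjusted p under 0.05, 2 of the 9 passed, *Lef1* and *Fgf20*, against 16.2% of all tested genes. This count was 4 without *mEC1*dup/dup replicate 1, where *Eda* and *Edar* joined, 1 without WT replicate 2 or 4 or *mEC1*dup/dup replicate 2 or 5, and 0 without WT replicate 5 or *mEC1*dup/dup replicate 4. Where it was 1, the gene was *Edar* without WT replicate 4 and *Lef1* in the other fits. The share of all genes at this threshold was read in the main fit alone. For none of the 10 did the genotypes separate in CPM without overlap, as they did for 5.07% of tested genes. DESeq2 and limma-voom called 0 of the 9 as well, against 5.1% and 2.4% of all tested genes. The median log2 fold change, *mEC1*dup/dup over WT, was -0.076 over the 9 and -0.0041 over all tested genes.

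The genes differed widely in level. As mean CPM per kilobase of exon in WT, *Sostdc1* stood highest at 31.6 ± 3.85 (SD, n = 5), followed by *Lef1* at 5.45 ± 0.654. *Eda* (3.09 ± 0.185), *Wnt10b* (2.97 ± 0.383), *Dkk4* (1.85 ± 0.465), *Edaradd* (1.74 ± 0.299), *Edar* (1.55 ± 0.243) and *Lhx2* (1.25 ± 0.488) came next, and each of these overlapped its neighbour in the order. *Fgf20* (0.369 ± 0.141) and *Shh* (0.0704 ± 0.0637) were the lowest, and did not overlap each other or the genes above them in WT. In *mEC1*dup/dup the order was the same except that *Wnt10b* (3.07 ± 0.376) stood above *Eda* (2.75 ± 0.390), with overlapping ranges.

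**Figure D1:**
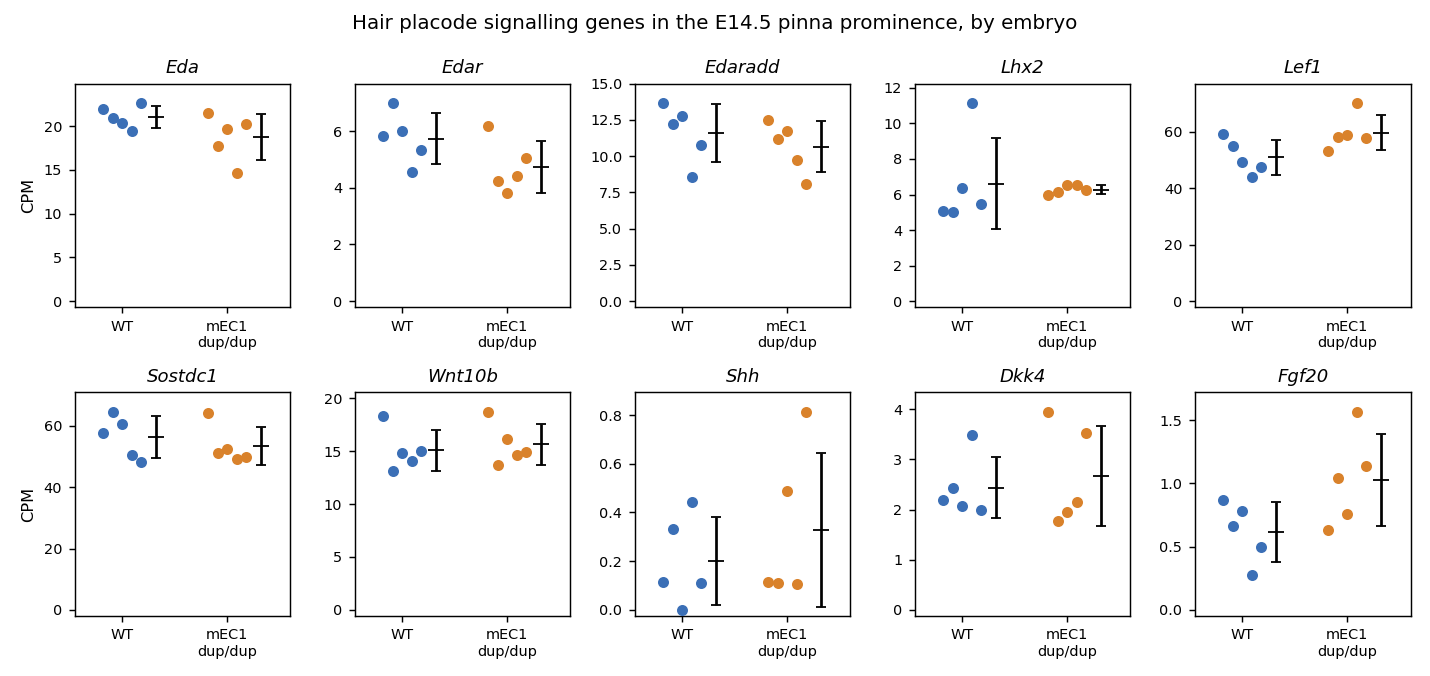
CPM of the 10 hair placode signalling genes in each WT (blue) and *mEC1*dup/dup (orange) embryo, replicates 1 to 5 from left to right, each panel on its own linear axis, with the mean and SD in black (n = 5 per genotype). The genotypes overlap in all 10 panels, and WT replicate 4 stands alone for *Lhx2* at 11.1 CPM.

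*Eda* encodes the ligand ectodysplasin A and lies on the X chromosome (GRCm39 chrX:99019212-99444368, plus strand). Its counts in WT replicates 1 to 5 were 381, 379, 363, 351 and 408. In *mEC1*dup/dup replicates 1 to 5 they were 376, 322, 363, 272 and 374. Replicates 2 and 4 of *mEC1*dup/dup lay below every WT embryo, and the other 3 lay within the WT range. Normalized, the means were 21.1 ± 1.26 CPM in WT and 18.8 ± 2.66 CPM in *mEC1*dup/dup (SD, n = 5 each). This is -0.17 as a log2 fold change (SE 0.094, 95% interval -0.37 to 0.035, edgeR adjusted p = 0.420). When single libraries were left out it ranged from -0.22 without *mEC1*dup/dup replicate 1 to -0.090 without *mEC1*dup/dup replicate 4. Against the 1 *mEC1*dup/dup embryo with at most 10 *Xist* counts, the difference was -0.056 (SE 0.12, edgeR adjusted p = 0.957), in a fit that assumes that this lone library varies as the WT libraries do.

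*Edar* encodes the EDA receptor (chr10:58436611-58511535, minus strand) and marks placode epithelium. WT replicates 1 to 5 measured 5.84, 6.98, 6.01, 4.54 and 5.32 CPM, from 82 to 126 counts. *mEC1*dup/dup replicates 1 to 5 measured 6.17, 4.24, 3.80, 4.42 and 5.04 CPM, from 70 to 108 counts. *mEC1*dup/dup replicates 2, 3 and 4 lay below every WT embryo and replicate 1 lay above 4 of the 5. With a log2 fold change of -0.28 (SE 0.16, 95% interval -0.62 to 0.063) it did not pass the test (edgeR adjusted p = 0.431). Without *mEC1*dup/dup replicate 1 it was -0.39 (edgeR adjusted p = 0.221).

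*Edaradd* encodes the death domain adaptor of EDAR (chr13:12487513-12535319, minus strand). The WT embryos measured 13.6, 12.2, 12.7, 8.53 and 10.8 CPM, and the *mEC1*dup/dup embryos 12.5, 11.2, 11.7, 9.71 and 8.07 CPM. The groups overlapped over most of their range, with the lowest WT value in replicate 4. Between the genotypes the log2 fold change was -0.12 (SE 0.14, 95% interval -0.43 to 0.18, edgeR adjusted p = 0.737). It was -0.039 without *mEC1*dup/dup replicate 5 and -0.22 without WT replicate 4. For the ligand, receptor and adaptor alike, the intervals include 0 and decreases of up to 0.37, 0.62 and 0.43 on the log2 scale.

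For *Edar* and *Lef1*, stretches of the promoter are printed because the table of RefSeq promoters (GRCm38.p6, another build than the gene positions above) held short motif cores there for factors of this pathway or for HMX proteins. The table gives 250 bases before to 50 after each start site, and it matched 6 of the 10 genes with 10 windows: *Eda*, *Edar*, *Edaradd*, *Lhx2*, *Lef1* and *Wnt10b*. The first stretch, from minus-strand chr10:58675847-58675946, holds the TCF/LEF core CTTTGA in capitals. The second, from plus-strand chr3:131110197-131110296, holds CAAGTG in capitals, a core bound by HMX proteins.
*Edar*: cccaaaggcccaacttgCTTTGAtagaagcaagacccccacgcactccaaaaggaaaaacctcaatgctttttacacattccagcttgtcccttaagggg
*Lef1*: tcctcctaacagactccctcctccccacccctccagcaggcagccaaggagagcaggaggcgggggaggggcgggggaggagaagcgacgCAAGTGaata
Searched on both strands, CTTTGA lay in 2 of the 10 windows, that of *Edar* and the most downstream one of *Lef1*, against 16% of all 32851 promoter windows of the same length. CAAGTG lay in 3, of which 2 are overlapping *Lef1* windows that share the match printed above and the third is that of *Wnt10b*, against 13.6%. The LIM homeodomain core TAATTA lay in 0 of the 10, against 5.29%, and a loose form of the NF-kB motif in 9, against 50.8%. The 2 overlapping *Lef1* windows share their NF-kB match as well. The windows of these genes hold 43.7% to 74.7% G and C, and the shares of all windows were not matched for this. These matches describe letters in the windows and say nothing of binding.

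*Lef1* encodes a transcription factor that carries WNT signals to DNA in both placode and dermal condensate (chr3:130903919-131018005, plus strand). The WT embryos measured 59.1, 55.0, 49.3, 43.8 and 47.4 CPM. The *mEC1*dup/dup embryos measured 53.2, 58.2, 58.7, 70.0 and 57.7 CPM. Only *mEC1*dup/dup replicate 4 lay above every WT embryo, and WT replicate 1 lay above the other 4 *mEC1*dup/dup embryos. The means were 50.9 ± 6.10 and 59.6 ± 6.21 CPM (SD, n = 5 each). Its log2 fold change of 0.23 (SE 0.086, 95% interval 0.041 to 0.41) had an unadjusted p of 0.0207 and an adjusted p of 0.206 in edgeR, and thus was not called. Leaving out each library in turn gave log2 fold changes of 0.16 to 0.29, with no adjusted p below 0.133. The antisense gene *Lef1os1*, which overlaps 16.3% of the *Lef1* exons, had 7 to 25 counts per library, against 790 to 1297 for *Lef1*. The library kits named do not mark strand, so reads of such a pair cannot be told apart in the shared part.

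*Wnt10b* encodes a WNT ligand of the placode epithelium (chr15:98668593-98690045, minus strand). It measured 18.3, 13.2, 14.9, 14.1 and 15.0 CPM in WT and 18.7, 13.7, 16.2, 14.7 and 14.9 CPM in *mEC1*dup/dup. The ranges nearly coincided, and replicate 1 was the highest in each genotype. Its log2 fold change was 0.052 (SE 0.10, 95% interval -0.17 to 0.28, edgeR adjusted p = 0.858), and it ranged from -0.019 without *mEC1*dup/dup replicate 1 to 0.13 without WT replicate 1.

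*Lhx2* encodes a LIM homeodomain factor of the placode and of hair follicle progenitors, and is also known from neural tissue (chr2:38229293-38259759, plus strand). WT replicates 1 to 5 had 88, 91, 113, 201 and 99 counts, and *mEC1*dup/dup replicates 1 to 5 had 105, 111, 120, 121 and 115. WT replicate 4, at 11.1 CPM, was the one embryo far from the rest, and the other 4 WT embryos reached 6.34 CPM at most. The coefficient of variation was 39.0% in WT and 3.77% in *mEC1*dup/dup, where counting error alone gives 9.27%. With all libraries the log2 fold change was -0.076 (SE 0.20, edgeR adjusted p = 0.892), and without WT replicate 4 it was 0.19 (SE 0.12, edgeR adjusted p = 0.430). That library also had the highest neuron and Schwann cell marker sum, and the part of such cells in its *Lhx2* level was not tested.

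*Sostdc1* encodes a secreted inhibitor of WNT and BMP signalling (chr12:36364137-36368451, plus strand). It had 996, 1165, 1083, 914 and 868 counts in WT and 1126, 926, 965, 910 and 923 in *mEC1*dup/dup, with means of 56.3 ± 6.87 and 53.4 ± 6.26 CPM (SD, n = 5 each). The *mEC1*dup/dup embryos lay within the WT range, 4 of them close together and replicate 1 apart at the top. Its log2 fold change was -0.078 (SE 0.091, 95% interval -0.27 to 0.12, edgeR adjusted p = 0.741), and it ranged from -0.15 without *mEC1*dup/dup replicate 1 (edgeR adjusted p = 0.379) to -0.019 without WT replicate 2.

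*Dkk4*, whose product blocks WNT co-receptors and is a target of both WNT and EDAR signalling (chr8:23114059-23117563, plus strand), measured 2.20, 2.44, 2.08, 3.49 and 1.99 CPM in WT. In *mEC1*dup/dup it measured 3.94, 1.76, 1.96, 2.16 and 3.52 CPM. Replicates 1 and 5 of *mEC1*dup/dup lay above every WT embryo and replicates 2 and 3 below every WT embryo. *Dkk4* had a log2 fold change of 0.13 (SE 0.26, 95% interval -0.42 to 0.68, edgeR adjusted p = 0.858), from 32 to 69 counts per library. It was -0.053 without *mEC1*dup/dup replicate 1 and 0.29 without WT replicate 4.

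*Fgf20* encodes a placode signal to the dermal condensate (chr8:40732207-40761372, minus strand). Its counts were 15, 12, 14, 5 and 9 in WT and 11, 19, 14, 29 and 21 in *mEC1*dup/dup. *mEC1*dup/dup replicates 2, 4 and 5 lay above every WT embryo, and the lowest count came from WT replicate 4. The log2 fold change was 0.73 (SE 0.33, 95% interval 0.012 to 1.45), the largest of the 9, with an unadjusted p of 0.0467 and an adjusted p of 0.299 in edgeR. The expected counting error at this depth is 25.9% of the mean, next to coefficients of variation of 38.2% in WT and 35.5% in *mEC1*dup/dup. Genes on the other strand overlap 16.1% of its exons, among them *Micu3* with 93 to 165 counts, and the strand setting of the counting is not given in the sources used here.

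*Shh* encodes the Hedgehog ligand of the placode (chr5:28661813-28672254, minus strand). Its counts were 2, 6, 0, 8 and 2 in WT and 2, 2, 9, 2 and 15 in *mEC1*dup/dup, a sum of 18 against 30. Both genotypes had embryos at 2 counts, and *mEC1*dup/dup replicates 3 and 5 alone passed 8. Mean levels were 0.200 ± 0.181 and 0.327 ± 0.317 CPM (SD, n = 5 each), and a two-sided exact permutation test, whose smallest p is 0.00794, gave p = 0.476. The difference of 0.126 CPM came to 0.0053 CPM without *mEC1*dup/dup replicate 5. With no filter on low counts, the log2 fold change was 0.69 with a 95% interval from -0.81 to 2.20 (edgeR adjusted p = 0.679), so at this depth a difference of 0 and a several-fold higher *Shh* level cannot be told apart.

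**Figure D2:**
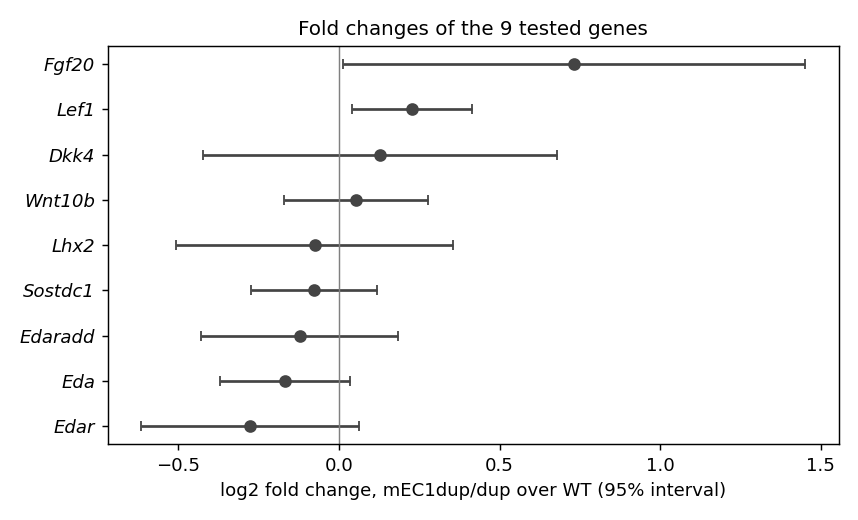
Log2 fold change of each tested gene, *mEC1*dup/dup over WT, with its 95% interval from the edgeR fit on 16426 genes (n = 5 embryos per genotype). Intervals of *Lef1* (0.041 to 0.41) and *Fgf20* (0.012 to 1.45) lie above 0, and the other 7 include it.

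Of 91 other tested genes of these pathways, of placodes and of the dermal condensate, each counted once, 3 were called, or 3.3%, next to 2.64% of all tested genes. Of 16 genes of the EDA and NF-kB pathway, none was called. *Eda2r*, the receptor of the EDA-A2 isoform, had the largest log2 fold change at -0.52 (SE 0.20, edgeR adjusted p = 0.210). *Nfkbia*, an inhibitor of NF-kB that is also its target, was at -0.015 (edgeR adjusted p = 0.942). *Tnfrsf19*, a related receptor, was at -0.18 (edgeR adjusted p = 0.282). The values of 13 of the 16 were negative, with a median of -0.033, against -0.0041 over all tested genes. The share of negative values over all tested genes was not counted. Without WT replicate 4, *Nfkb2*, which encodes an NF-kB subunit, was called at -0.25 (SE 0.062, edgeR adjusted p = 0.0379). That fit called 655 genes in all, or 3.95%.

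Of 21 further genes of the WNT pathway, 1 was called. *Kremen1*, a DKK receptor, fell from 140.4 ± 8.64 to 119.1 ± 4.98 CPM (SD, n = 5 each). On the log2 scale the difference was -0.24 (SE 0.046, edgeR adjusted p = 0.0182) and no overlap between the genotypes. *Axin2*, a general WNT target, was at 0.051 (edgeR adjusted p = 0.849), and *Dkk1*, an inhibitor related to *Dkk4*, at 0.33 (SE 0.12, edgeR adjusted p = 0.162). *Ctnnb1*, the beta-catenin gene, measured 864.1 ± 29.0 CPM in WT and 932.1 ± 18.5 CPM in *mEC1*dup/dup (SD, n = 5 each), with no overlap between the genotypes. Its difference of 0.11 (SE 0.033) had an adjusted p of 0.106 in edgeR and was called by DESeq2. The median of the list was 0.0051. The *Kremen1* call was lost without WT replicate 2 or without *mEC1*dup/dup replicate 3.

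Of 11 genes of Hedgehog reception and response, 1 was called. *Hhip*, which encodes a membrane protein that binds and restrains Hedgehog ligands, fell from 10.9 ± 1.67 to 7.44 ± 0.761 CPM (SD, n = 5 each). Its log2 fold change was -0.55 (SE 0.12, edgeR adjusted p = 0.0293), with no overlap between the genotypes. *Gli1*, a direct Hedgehog target, was at 0.011 (edgeR adjusted p = 0.972), and *Ptch1*, the receptor and also a target, at -0.14 (edgeR adjusted p = 0.295). The *Hhip* call held in 4 of the 10 fits that left out 1 library, and was lost without WT replicate 1, 3 or 5 or *mEC1*dup/dup replicate 2, 3 or 4.

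None of 12 FGF genes and none of 13 BMP genes was called. *Fgfr3*, an FGF receptor gene, had the largest value of the FGF list, -0.36 (SE 0.20, edgeR adjusted p = 0.405). *Fgf7*, a ligand made by mesenchyme, was at -0.23 (SE 0.088, edgeR adjusted p = 0.213), and *Dusp6*, a target of FGF signalling, at -0.085 (edgeR adjusted p = 0.488). *Nog*, which encodes a BMP inhibitor, was at 0.23 (SE 0.097, edgeR adjusted p = 0.249), and *Bmp4* at 0.16 (SE 0.064, edgeR adjusted p = 0.240). The list medians were -0.088 for FGF and 0.041 for BMP genes.

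Among 11 other genes known from placodes, *Dlx3*, a homeobox gene of stratified epithelium and hair, was the one called, and it rose. It measured 71.2 ± 7.31 CPM in WT and 90.8 ± 8.60 CPM in *mEC1*dup/dup (SD, n = 5 each), a difference of 0.35 on the log2 scale (SE 0.077, edgeR adjusted p = 0.0309), with no overlap between the genotypes. The call was lost without WT replicate 1, 2 or 5 or *mEC1*dup/dup replicate 2 or 3. *Foxi3*, a placode factor downstream of EDA, was at -0.22 (edgeR adjusted p = 0.760), and *Cdh3*, the P-cadherin gene, at 0.015 (edgeR adjusted p = 0.943). None of 13 dermal condensate genes was called. *Gal*, which encodes the peptide galanin, had the largest value there, -1.84 (SE 0.83, edgeR adjusted p = 0.291). Its counts ran from 3 to 127, the highest in WT replicate 4, without which the value was -0.65 (edgeR adjusted p = 0.683), and its average log2 CPM of 0.58 lay below the minimum for a call. *Sox2* was at 0.052 (SE 0.34, edgeR adjusted p = 0.959). The lists share some genes, such as *Bmp2*, *Bmp4*, *Nog*, *Ptch1* and *Gli1*.

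**Figure D3:**
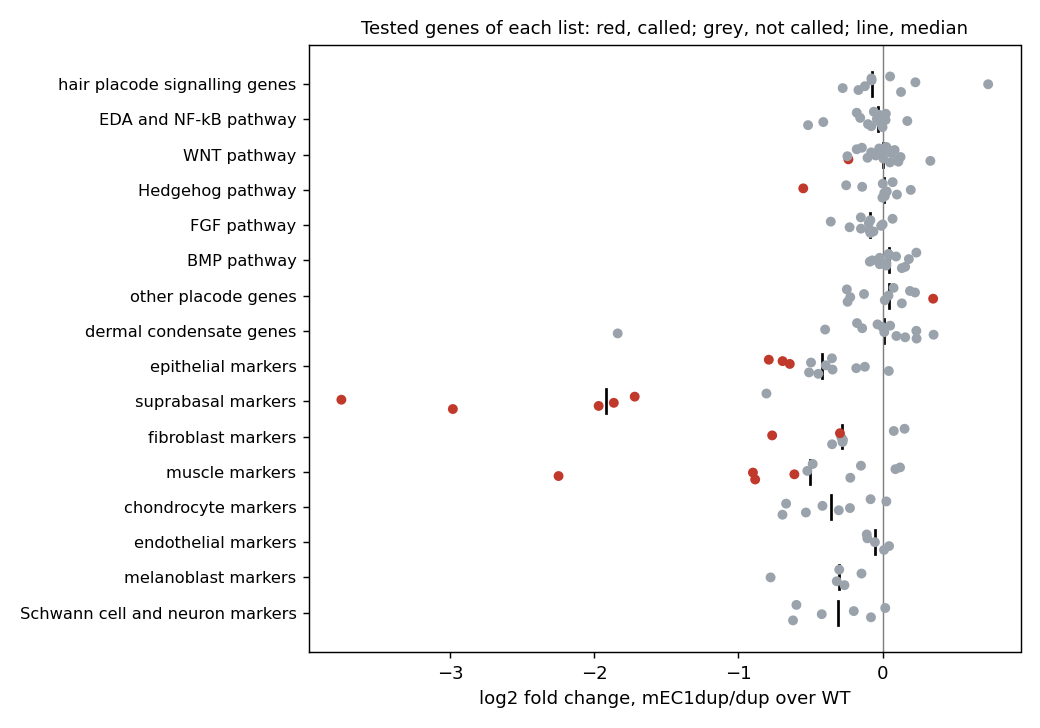
Log2 fold change of every tested gene of the placode genes, their pathways and the cell type marker lists, 1 point per gene, red where called and grey where not, with the list's median as a black line. The 9 placode genes and the pathway lists have medians near 0, while the median of the 6 suprabasal markers is -1.92.

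Most placode signals are made in the epidermis, and epidermal markers differed between the genotypes. In bulk tissue, fewer cells of a type and less RNA per cell cannot be told apart. Of 12 epithelial markers 3 fell, *Perp*, *Krt5* and *Krt14*, with log2 fold changes of -0.79, -0.69 and -0.64 (edgeR adjusted p = 0.0136, 0.0257 and 0.0296). The summed level of the 12 was 1131 to 1893 CPM in WT and 935.4 to 1178 CPM in *mEC1*dup/dup. The count of called markers moved between 1 and 8 when single libraries were left out, with 8 without WT replicate 4, 5 without WT replicate 5 and 1 without WT replicate 2 or *mEC1*dup/dup replicate 2, 3, 4 or 5. *Epcam*, a marker of all epithelium, was at 0.043 (edgeR adjusted p = 0.867). The other 11 of the 12 values were negative, and the median of the list was -0.42. Of 6 suprabasal markers, a list picked in earlier work on these libraries and so no independent evidence of direction, 5 fell, and their summed level was 162.8 to 482.5 CPM in WT and 58.0 to 80.1 CPM in *mEC1*dup/dup. Log2 fold changes were -3.75 for the suprabasal keratin gene *Krt77*, -2.98 for *Dmkn*, -1.86 for *Krt10* and -1.97 for *Krt1* (edgeR adjusted p = 0.00188, 0.000692, 0.00188 and 0.00353). Meanwhile the summed level of the 10 placode genes was 156.3 to 184.7 CPM in WT and 165.2 to 187.1 CPM in *mEC1*dup/dup.

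Some markers of fibroblasts and muscle also differed. Among fibroblast markers 2 of 8 fell, *Lum* and *Dpt* (5 of 8 without WT replicate 4), and the summed levels were 13090 to 21280 CPM in WT and 13770 to 15560 CPM in *mEC1*dup/dup, which overlap. The fibroblast markers *Pdgfra* and *Twist1* were at 0.077 and 0.15 (edgeR adjusted p = 0.670 and 0.313). The other 6 fibroblast markers were negative, each at an unadjusted p under 0.05 in edgeR, and the median of the list was -0.28. Of 10 muscle markers *Acta1*, *Myh8*, *Myh3* and *Ckm* fell, with *Ckm*, the muscle creatine kinase gene, at a log2 fold change of -2.25 (edgeR adjusted p = 0.00126), and the summed levels were 2251 to 3460 and 1460 to 2312 CPM. The *Myh3* call held in 3 of the 10 fits that left out 1 library, those without WT replicate 2, WT replicate 4 or *mEC1*dup/dup replicate 1. The myogenic factor genes *Myod1* and *Myog* were at 0.089 and 0.12 (edgeR adjusted p = 0.786 and 0.745). The other 8 muscle markers were negative, and the median of the list was -0.50. None of the chondrocyte (8), endothelial (5), melanoblast (5) or Schwann cell and neuron (6) markers was called by edgeR with all libraries. DESeq2 called the melanoblast marker *Kit*, which was at -0.32 in edgeR (SE 0.087, edgeR adjusted p = 0.0724). Without WT replicate 5, edgeR called it at -0.37 (edgeR adjusted p = 0.0478). With the replicate number as a block, 3 chondrocyte markers and 1 Schwann cell and neuron marker were called lower. The largest values in these lists were -0.69 for *Acan*, -0.11 for *Tek*, -0.78 for *Mlana* and -0.62 for *Elavl4*. No marker of any list was at 0 in all libraries. The part of cell type shares in the placode gene values was not tested beyond the ratios and the fit that follow.

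An epithelial score, the mean log2 CPM of the 12 epithelial markers, was 6.47 ± 0.276 in WT and 6.07 ± 0.104 in *mEC1*dup/dup (SD, n = 5 each), and *mEC1*dup/dup minus WT was -0.39. No test is given, since the marker lists were chosen with earlier results of these data known. The log2 ratio of each placode gene to the level of these markers was also read per embryo, likewise as a description. In this ratio *Lef1* (0.62 higher in *mEC1*dup/dup), *Wnt10b* (0.45) and *Sostdc1* (0.32) separated the genotypes, with all 5 *mEC1*dup/dup embryos above all 5 WT embryos. Such a separation was seen for 16.4% of all tested genes, whose median difference in this ratio was 0.39 because the reference itself was lower in *mEC1*dup/dup. The other 6 tested placode genes overlapped, with differences from 0.12 for *Edar* to 1.05 for *Fgf20*. *Sostdc1*, *Eda*, *Edar*, *Edaradd* and *Lhx2* lay below the median of all genes. With *Epcam*, *Cdh1*, *Esrp1* and *Grhl2* alone as the reference, the score difference was -0.22. *Lef1* then was the one placode gene without overlap, at 0.45, as were 4.66% of all tested genes in that direction, against a median of 0.22. *Edar* was at -0.055. A ratio depends on its reference, and *Lef1* is also made in the dermis.

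**Figure D4:**
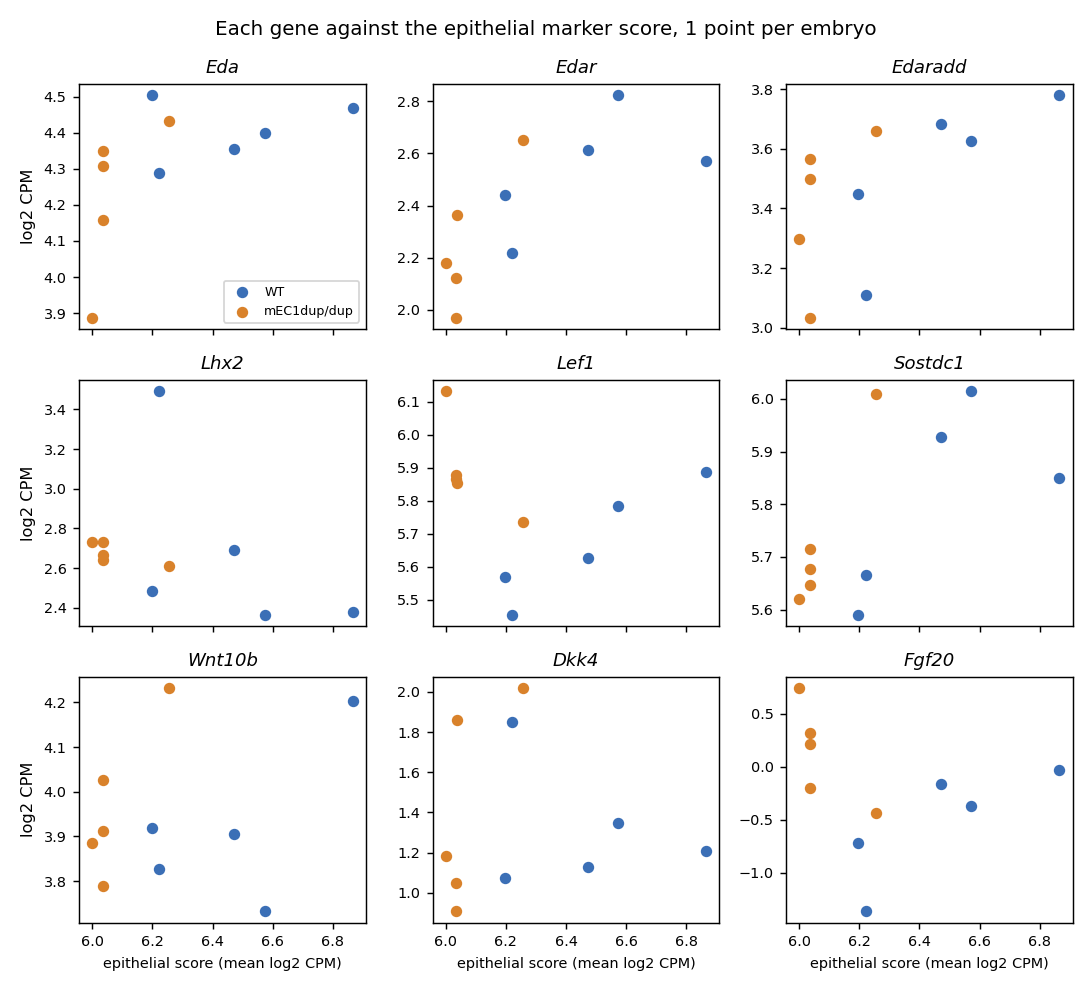
Log2 CPM of the 9 tested genes against the epithelial score of the same embryo (mean log2 CPM of 12 markers), WT in blue and *mEC1*dup/dup in orange, 1 point per embryo. The *mEC1*dup/dup embryos lie at scores of at most 6.26 and the WT embryos at 6.20 to 6.87, so that the score ranges overlap only through *mEC1*dup/dup replicate 1.

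With the epithelial score as a covariate in edgeR, *Lef1* was at 0.39 (SE 0.12, edgeR adjusted p = 0.218) and *Fgf20* at 1.13 (SE 0.53, edgeR adjusted p = 0.399), and again none of the 9 was called. Over all tested genes 21 were called in this fit, or 0.13%. *Edar* came to 0.0055, *Edaradd* to 0.21 and *Sostdc1* to 0.15, all from negative values without the covariate. *Lhx2* moved the other way, to -0.47 (SE 0.24, edgeR adjusted p = 0.446). Of the 17 called genes of the pathway and marker lists, 6 kept their call in this fit, the 5 suprabasal markers and *Ckm*. The suprabasal values were smaller than without the covariate, at -0.97 for *Krt1*, -1.01 for *Krt10*, -2.16 for *Krt77*, -2.07 for *Dmkn* and -0.95 for *Krtdap*. *Wnt10b* was at 0.26 (SE 0.13, edgeR adjusted p = 0.427). *Kremen1* was at -0.14 (edgeR adjusted p = 0.345) and no longer called. *Hhip* at -0.55 (edgeR adjusted p = 0.234) and *Dlx3* at 0.51 (edgeR adjusted p = 0.0819) were not called either, at values as large as or larger than without the covariate. *Krt5*, *Krt14* and *Perp* are part of the score, so their values in this fit say nothing. With the *Xist* level (log2 CPM) in the fit instead, *Lef1* was at 0.22 (SE 0.14, edgeR adjusted p = 0.668), *Fgf20* at 0.97 (SE 0.50, edgeR adjusted p = 0.599) and *Edaradd* at -0.51 (SE 0.19, edgeR adjusted p = 0.445). In that fit none of the 17 called list genes kept its call, and over all tested genes 3 were called. Among their values were -3.89 for *Krt77*, -1.81 for *Krt10* and -0.87 for *Perp*, near those without *Xist*, while *Dlx3* was at 0.22, *Hhip* at -0.43 and *Kremen1* at -0.20. The lowest adjusted p of the 17 was 0.167. *Dkk4* was at 0.45 (SE 0.37, edgeR adjusted p = 0.754) in that fit.

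Within the genotypes, the placode genes were compared by the Pearson r of their deviations in log2 CPM from the genotype means over the 10 libraries, a description without a test, since all genes share each library's depth and dissection. Of 36 pairs of the 9 tested genes, 5 had an r above 0.5 and 5 below -0.5, and the median was 0.22. *Lef1* and *Fgf20* had the highest r, 0.85, followed by *Edar* and *Sostdc1* with 0.79 and *Edaradd* and *Sostdc1* with 0.67. *Fgf20* had 5 to 29 counts per library. Both *Lef1* and *Fgf20* were lowest in WT replicate 4 and highest in *mEC1*dup/dup replicate 4, and r was not read without these libraries. The lowest r was -0.64, between *Edaradd* and *Lhx2*, and the deviations of *Lhx2* come mainly from WT replicate 4.

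**Figure D5:**
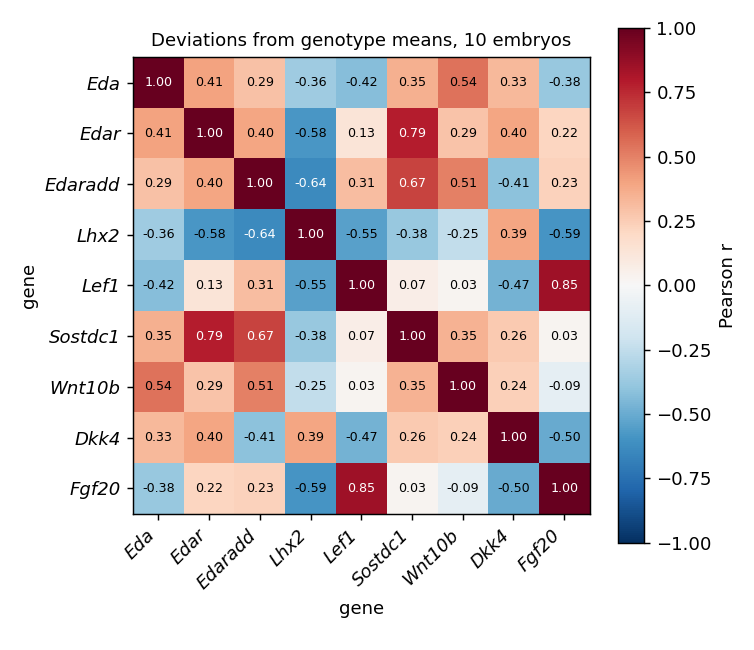
Pearson r between the 9 tested genes for deviations of log2 CPM from the genotype means over 10 embryos, from blue (-1) to red (1), with r printed in each cell. *Edar*, *Edaradd* and *Sostdc1* share positive values up to 0.79, *Lef1* and *Fgf20* reach 0.85, and *Lhx2* is negative with 7 of the other 8.

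By the same measure, among 14083 genes with an average log2 CPM of at least 1, *Edar* was most like *Cry2* (0.94), *Prps2*, *Tnfaip6*, *Gdf6* and *Foxj3*. *Lef1* was most like *Irx3* (0.93), *Zfand2b*, *Lsr*, *Zfp747* and *Bmp7*. *Sostdc1* was most like *Nr3c1* (0.96), *Tmem26*, *Tcf12*, *Pdgfa* and *Zfp287*. For *Lhx2*, looked up after its values were seen, *Map9* (0.97), *Rpf2*, *Bmerb1*, *Hacd3* and *Mapk8* came first. Over 10 libraries the highest of 14083 values is high for any gene, and each list describes these embryos alone.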

How the data were processed

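Poly(A) RNA of whole E14.5 pinna prominences was sequenced from 5 WT and 5 *mEC1*dup/dup embryos, grouped by their labels. Replicates are stated to be siblings of several litters, and the litter of each library is not given in the sources used here. Per the submitters' processing notes, reads passed fastp and FastQC, were aligned to GRCm39 with STAR and counted with featureCounts. The authors deposited raw counts per gene, without normalization, for Ensembl identifiers. Annotation release, strand setting and treatment of reads with several matches are not given in the sources used here, and the library kits named do not mark strand. Symbols, positions and exon lengths came from GENCODE for GRCm39, which matched 49355 of 53465 identifiers.

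Genes passing filterByExpr (16426) were normalized by TMM and tested in edgeR 4.0.16 (glmQLFit, glmQLFTest; R 4.3.3) with genotype as the only term. SE is the absolute log2 fold change divided by the square root of F, and intervals are 95%. Ratios and scores used log2 CPM with a prior count of 2. Reads carry no molecular identifiers, so counting errors cover counting alone. No pair of libraries of a genotype was a copy, as chi-square per degree of freedom was at least 2.55. The steps were tested on simulated data.

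The placode genes, pathway lists and marker lists were chosen with earlier results of these data known. The text names all 10 placode genes, the called genes of each list (at most 4), the largest change where none was called, the genes most like *Edar*, *Lef1* and *Sostdc1*, and *Hmx1* and *Xist*. *Nfkb2*, *Nfkbia*, *Tnfrsf19*, *Axin2*, *Dkk1*, *Fgf7*, *Gli1*, *Ptch1*, *Dusp6*, *Nog*, *Bmp4*, *Foxi3*, *Cdh3*, *Sox2*, *Epcam*, *Ctnnb1*, *Pdgfra*, *Twist1*, *Myod1*, *Myog*, *Kit* and the genes like *Lhx2* were added after their values were seen. Alternatives were other size factors, DESeq2 1.42.0, limma-voom (limma 3.58.1), other filters and thresholds, the replicate number as a block, *Xist* or the epithelial score as a covariate, and each library left out in turn. Figures were drawn with matplotlib 3.10.9.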

Additional observations from a re-analysis of the deposited data

Results flagged for a closer look

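*Lhx2* in WT replicate 4 stood apart from the other WT embryos, with 201 counts against 88 to 113, a gap of 0.711 of the group's range in log2 CPM. *Sostdc1* in *mEC1*dup/dup replicate 1 stood apart from its group, with 1126 counts against 910 to 965 and a gap of 0.758 of the range in log2 CPM. The critical value for 5 samples is 0.71, and 20 groups of 5 were looked at, of which chance sets apart about 1 in 20.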

How the results depend on the processing

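None of the 9 tested placode genes was called in any of the 22 edgeR, DESeq2 or limma-voom fits, and at an unadjusted p under 0.05 the count was 2 in the fit of the report and 0 to 4 over the others, with 4 (*Eda*, *Edar*, *Lef1*, *Fgf20*) without *mEC1*dup/dup replicate 1 and 0 without WT replicate 5 or *mEC1*dup/dup replicate 4 or with at most 10 *Xist* counts. *Fgf20* was not tested where every library had to hold 10 counts. The lowest adjusted p over these fits was 0.133, for *Lef1* without WT replicate 1. The sign turned for 6 of the 9. *Wnt10b* came to -0.018 with *Xist* as a covariate, -0.012 with only the libraries of at most 10 *Xist* counts, 0.26 with the epithelial score as a covariate, and -0.019 to 0.13 in leave-one-out fits. With the epithelial score as a covariate *Edar* came to 0.0055, *Edaradd* to 0.21 and *Sostdc1* to 0.15. In leave-one-out fits *Lhx2* ranged from -0.16 to 0.19 and *Dkk4* from -0.053 to 0.29, and *Dkk4* was at 0.45 with *Xist* as a covariate and 0.53 with only the libraries of at most 10 *Xist* counts. *Eda*, *Lef1* and *Fgf20* kept their sign in all fits. The causes were not tested.

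Over all genes, 434 were called, against 831 by DESeq2, 395 by limma-voom, 21 with the epithelial score as a covariate, 3 with *Xist* as a covariate, 0 with only the libraries of at most 10 *Xist* counts (where 1 *mEC1*dup/dup library is left, so this count says nothing of stability), and 154 (without *mEC1*dup/dup replicate 3) to 655 (without WT replicate 4) in leave-one-out fits. Same-numbered libraries correlated by -0.056 to 0.34 in their deviations, with a mean r of 0.16. Libraries with different numbers had a mean r of -0.040 and a maximum of 0.27. The fit of the report did not take the numbers to pair libraries, and whether they mark a pairing was not tested. With a replicate block, 687 genes and 0 placode genes were called, *Lef1* was at 0.23 (edgeR adjusted p = 0.223), and *Tnfrsf19* and 8 epithelial markers were called. With 55 WT and 94 *mEC1*dup/dup counts in all for *Fgf20*, and 18 and 30 for *Shh*, depth limits these most.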
